A study of Xenopus laevis with 11 samples.

Results

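The regions described here are short gaps in H3K4me3, places where 2 neighbouring H3K4me3 intervals are separated by no more than 1000 bp. They were chosen by their H3K4me3 calls in early gastrulae of the frog Xenopus laevis, taken whole at NF stage 10.5 of the Nieuwkoop and Faber table. A gap was a member when it measured 50 to 1000 bp between consecutive intervals of the series-wide H3K4me3 list on an L or S chromosome and both intervals were at least 50 bp wide. Of 22173 gaps between consecutive intervals on these chromosomes, 751 were members. Their flanks were 1470 of the 22191 H3K4me3 intervals, and 20680 other intervals of at least 50 bp served for comparison. The p300 peaks were not used to choose the gaps.

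Chromatin immunoprecipitation with sequencing (ChIP-seq) was done on extracts of pooled, formaldehyde-fixed embryos with 2 replicates for H3K4me3 and 2 for p300. The labels name no treatment, genotype or clutch, so the spread between replicates may be technical. The lists are peak positions without signal, so read depth is unknown. The replicate lists held 32821 and 27267 H3K4me3 peaks and 35127 and 58614 p300 peaks.

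H3K4me3, the trimethylation of lysine 4 on histone H3, is laid down around active and poised transcription start sites. Because it is carried by nucleosomes, it dips where nucleosomes are displaced, for instance over the start site itself. p300 is a histone acetyltransferase and coactivator that transcription factors recruit to enhancers and promoters, so its peaks mark sites where such factors may sit. In the early gastrula the zygotic genome has recently become active. A short gap in a called H3K4me3 region can separate the sides of a single promoter, neighbouring promoters, or a promoter and an enhancer, and the lists alone do not tell these apart.

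The gaps were confined to the upper part of the permitted range. The shortest measured 637 bp, the median was 779 bp and the quartiles were 709 and 876.5 bp, so 0 gaps lay between 50 bp and that minimum. Each replicate list had a floor of its own, just above 4 times its narrowest peak. In H3K4me3 replicate 2 the shortest gap was 637 bp and the narrowest peak 159 bp, 4 times which is 636 bp. In H3K4me3 replicate 1 the shortest gap was 693 bp and the narrowest peak 173 bp, 4 times which is 692 bp. MACS2, the peak caller that the submitters' processing notes name, can join stretches closer than a set distance, but the setting used is not given in the sources used here. Short dips in H3K4me3, such as that of a single displaced nucleosome, are therefore not represented among the gaps.

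At the lower end the members just inside the rule were 2 gaps of 637 bp on chromosome 7L, from 73284375 to 73285011 and from 82176128 to 82176764. At the upper end they were a gap of 999 bp on 7S from 4773975 to 4774973 and one of 1000 bp on 1S from 123264521 to 123265520. The nearest gaps outside the rule measured 1001 bp, on 2L from 151563808 to 151564808 and on 9_10S from 53135944 to 53136944. None of these 6 gaps held a p300 centre in either replicate.

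**Figure D1:**
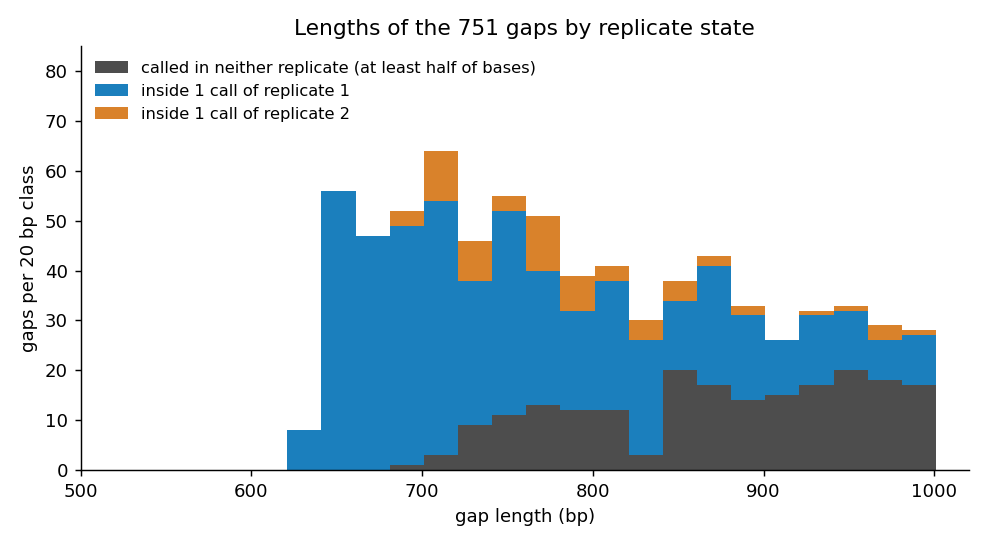
Lengths of the 751 gaps (x axis, bp) as the number of gaps in narrow length classes (y axis), stacked by what the H3K4me3 replicates called across the gap. No gap is shorter than 637 bp, most of the shorter gaps lie inside 1 call of replicate 1, and mostly uncalled gaps make up most of those near 1000 bp.

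Most gaps existed in 1 H3K4me3 replicate and were bridged in the other. A series-wide interval is the part that both replicates cover: all 24948 had exactly the bounds of an overlap between peaks of both lists. In 486 of the 751 gaps, or 64.7% (95% Wilson interval 61.2 to 68.0%), a single replicate 1 call ran across the whole gap, and in 63 gaps, or 8.39% (6.61 to 10.6%), a replicate 2 call did. The other 202 gaps, 26.9% (23.8 to 30.2%), lacked any call on at least 50% of their bases, with a median of 91.8% uncalled. They are called mostly uncalled gaps here, since calls of either replicate still covered part of them.

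How often a gap was bridged differed with its length. All 137 gaps shorter than 693 bp were bridged in replicate 1, whose list has no shorter gap. Of the 614 gaps from 693 to 1000 bp, 349 (56.8%) were bridged in replicate 1, 63 (10.3%) in replicate 2 and 202 (32.9%) in neither. From 950 to 1000 bp, 60.5% of 76 gaps were bridged in neither. When the rule was applied to each replicate list, replicate 1 gave 1061 gaps and replicate 2 gave 892. Of these, 218 overlapped a gap of the other replicate, which was 20.5% of the replicate 1 gaps (18.2 to 23.1%) and 24.4% of the replicate 2 gaps (21.7 to 27.4%). A further 489 replicate 2 gaps (54.8%) lay wholly inside a replicate 1 peak, whereas 66 replicate 1 gaps (6.22%) lay wholly inside a replicate 2 peak. These shares are over all gaps, also those with a flank that the other replicate did not call. Both flanks overlapped a call of the other replicate for 433 of the 1061 replicate 1 gaps and 738 of the 892 replicate 2 gaps.

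The intervals on either side of a gap were usually unequal. The wider flank had a median of 1692 bp (quartiles 1077 and 2550 bp) and the narrower flank of 418 bp (quartiles 249 and 759.5 bp), and the median ratio of wider to narrower was 3.35. Sorting by width makes this ratio at least 1, and it was not compared with that of other neighbouring intervals. Other H3K4me3 intervals had a median of 1128.5 bp. A whole pair, gap included, spanned a median of 3037 bp. Pairs were mostly single events: 691 gaps stood alone, 26 runs joined 2 consecutive gaps, 1 run joined 3 and 1 run joined 5. The distance from a pair to the next H3K4me3 interval beyond it had a median of 46871 bp, compared with 55872 bp from any other interval.

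p300 was rarely centred in a gap. Of 751 gaps, 43 held a p300 centre, 5.73% (4.28 to 7.62%), and none held more than 1 of the series-wide list. Strips laid outward from the outer edges of each pair, which together are as long as the gap and equally close to an H3K4me3 edge, held a centre in 94 of 751 pairs, or 12.5% (10.3 to 15.1%). Per kb, the gaps held 0.0720 p300 centres (exact Poisson 95% interval 0.0521 to 0.0970) and the strips 0.168 (0.136 to 0.205). On average over the 9 chromosome numbers, with L and S combined, the log2 ratio of gap to strip was -1.29 ± 0.94 (SD, n = 9), or 0.41 times. It was below 0 in 9 of 9 numbers (two-sided exact sign-flip permutation p = 0.00391, the smallest possible, 0.0117 after Benjamini-Hochberg adjustment over 9 tests). The value nearest 0 was -0.15, on number 8. On chromosome 8S alone the gaps were not poorer, with 0.259 centres per kb (0.124 to 0.476) and 0.212 (0.0914 to 0.417) in the strips. The test measures how regular a difference is over chromosomes, not over batches of embryos.

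This difference depended on the H3K4me3 list. With gaps taken from H3K4me3 replicate 1 alone, gaps held 0.0898 and strips 0.107 series-wide p300 centres per kb, a log2 ratio of -0.23 that did not pass (exact sign-flip p = 0.418). With gaps taken from replicate 2 alone, the densities were 0.0652 and 0.147 per kb and the ratio was -1.09 (exact p = 0.00391). Calls of H3K4me3 replicate 1 covered 64.3% of the gap bases and 34.9% of the strip bases. On bases called in replicate 1 alone, gaps held 0.0703 p300 centres per kb and strips 0.291. On bases called in neither replicate, gaps held 0.0698 (0.0348 to 0.125) and strips 0.0880 (0.0585 to 0.127), and the log2 ratio of -0.39 did not pass (exact p = 0.332).

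The p300 replicates gave the same direction, but this is in large part built in. All 25010 series-wide p300 peaks had exactly the bounds of an overlap between peaks of both p300 lists, so they recur in each. With p300 replicate 1 the gaps held 47 centres, 0.0787 per kb, and the strips 110 centres, 0.193 per kb. With p300 replicate 2 they held 70 centres, 0.117 per kb, and the strips 123, 0.215 per kb. A p300 centre was found in both replicate lists in 39 gaps, in replicate 1 alone in 7 and in replicate 2 alone in 29. Gaps with a centre in replicate 2 alone thus outnumbered those with one in replicate 1 alone, and the replicate 2 list is also the longer one.

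**Figure D2:**
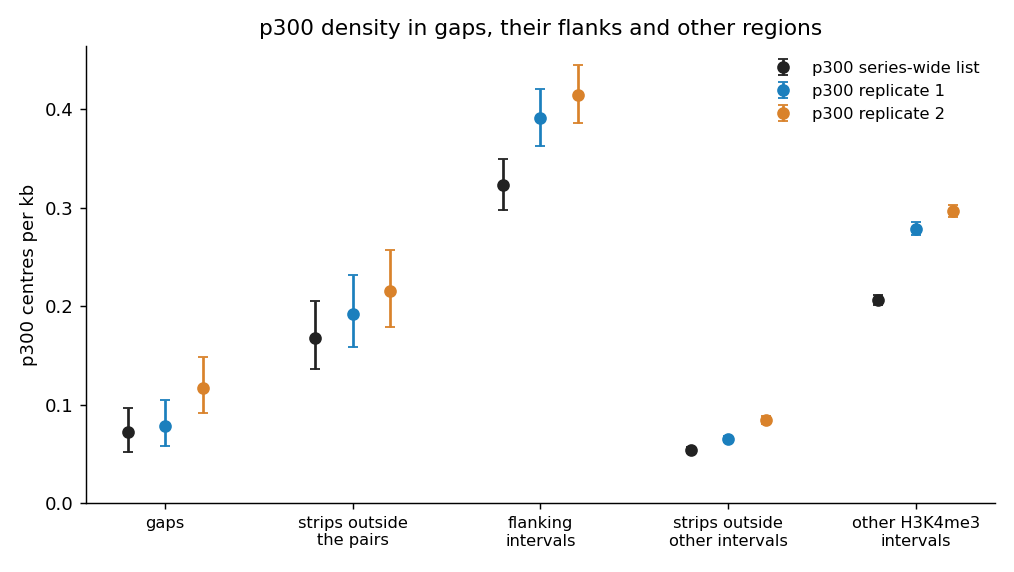
p300 centres per kb (y axis) in the gaps, the strips outside the pairs, the flanks, the strips outside other intervals and the other intervals (x axis), for the series-wide p300 list and each p300 replicate. Points are densities and bars exact Poisson 95% intervals. In each list the gaps lie below the strips outside the pairs and far below the flanks, and the flanks lie above other H3K4me3 intervals.

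The intervals beside a gap were rich in p300. Against the 0.0720 p300 centres per kb of the gaps, the flanks held 0.322 per kb (0.297 to 0.349), or 603 centres. The log2 ratio of gap to flank was -2.22 ± 0.76 (SD over 9 chromosome numbers), or 0.21 times, below 0 in 9 of 9 (exact sign-flip p = 0.00391, adjusted 0.0117). A drop outside called H3K4me3 was not particular to the gaps. Strips within 500 bp outside other intervals held 0.0544 centres per kb, and those intervals themselves 0.206. Of the 1470 flanks, 451 held a p300 centre, or 30.7% (28.4 to 33.1%), compared with 22.5% of other H3K4me3 intervals (22.0 to 23.1%). Other intervals held 0.206 centres per kb, and the log2 ratio of flanks to other intervals was 0.63 ± 0.25, or 1.55-fold, above 0 in 9 of 9 numbers (exact p = 0.00391, adjusted 0.0117).

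Flanks also held more p300 than intervals of similar width. In 5 of 6 width classes the flanks were denser. Among intervals of 1000 to 1500 bp the flanks held 0.327 centres per kb (0.266 to 0.397) and other intervals 0.172 (0.162 to 0.182), and among those of at least 2500 bp the flanks held 0.367 (0.324 to 0.415) and other intervals 0.252 (0.240 to 0.263). The exception was the class from 300 to 600 bp, with 0.273 (0.186 to 0.388) in flanks and 0.385 (0.347 to 0.426) in other intervals. With other intervals weighted by width class the log2 ratio was 0.53 ± 0.24, above 0 in 9 of 9 numbers (exact p = 0.00391, 0.00938 after adjustment over 12 tests). This comparison and 2 more below were added after the values had been seen. The members and the other comparisons were themselves chosen with earlier results of these data known.

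In 373 of the 751 gaps, 49.7% (46.1 to 53.2%), at least 1 flank held a p300 centre, and in 90 both flanks did. Of the 43 gaps with p300, 29 (67.4%, 52.5 to 79.5%) also had p300 in a flank, compared with 344 of the 708 gaps without p300 (48.6%, 44.9 to 52.3%). The difference between these shares was not tested. In 364 gaps, 48.5%, there was no series-wide p300 centre in the gap or its flanks. No p300 peak reached across a whole gap: of 78 peaks that touched a gap, 46 also reached 1 flank and 0 reached both. Size alone made this likely, as the shortest gap was 637 bp and series-wide p300 peaks had a median width of 215 bp. The p300 peaks centred in gaps had a median width of 203 bp, those centred in outer strips of 237 bp and those centred in flanks of 254 bp.

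Beyond the pairs, p300 was dense close to the outer edges. Within 100 bp of an edge the inside of a gap held 0.0666 centres per kb (0.0319 to 0.122) and the outside of a pair 0.271 (0.193 to 0.371), whereas the outside of other intervals held 0.0994 (0.0900 to 0.109). From 200 to 300 bp the inside of a gap held 0.0399, the outside of a pair 0.0626 and the outside of other intervals 0.0452. From 400 to 500 bp these densities were 0.0959, 0.104 and 0.0247, so within 500 bp the density outside the pairs did not fall steadily with distance. Its intervals at 200 to 300 bp (0.0286 to 0.119) and at 400 to 500 bp (0.0584 to 0.172) overlapped. The density inside gaps showed no rise toward the edge. Gaps therefore lay low beside the outer strips of their own pair. Beside strips within 500 bp of other intervals, which held 0.0544 per kb, they lay slightly higher, with a log2 ratio of 0.33 that did not pass (exact sign-flip p = 0.230). Those strips reach farther from an edge than most gap bases do. Within 300 bp of an edge the gaps held 0.0666 (0.0449 to 0.0950) and the outside of other intervals 0.0710 (0.0664 to 0.0759).

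The outer strips of the pairs held 3.07 times the p300 density of strips outside other intervals on the geometric mean (log2 ratio 1.62 ± 0.47, above 0 in 9 of 9 numbers, exact p = 0.00391, 0.00938 after adjustment over 12 tests). This ratio is not matched for distance: the latter strips reach 500 bp from an edge, the outer strips 50% of the gap length. Within 300 bp of an edge the densities were 0.185 (0.147 to 0.231) outside the pairs and 0.0710 (0.0664 to 0.0759) outside other intervals. The neighbourhood was p300-rich further out as well. From 1000 to 2000 bp beyond the edge there were 0.0487 centres per kb outside pairs (0.0379 to 0.0617) and 0.0208 outside other intervals (0.0194 to 0.0222). From 5000 to 10000 bp the densities were 0.0341 (0.0300 to 0.0387) and 0.0143 (0.0137 to 0.0148).

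The 767 next longer gaps, from 1001 to 2000 bp, had more series-wide p300 within 300 bp of their edges than the members. Within 300 bp of an edge the members held 0.0666 centres per kb (0.0449 to 0.0950) and the longer gaps 0.113 (0.0844 to 0.148), and these intervals overlapped. The log2 ratio was -0.94 ± 1.29, below 0 in 7 of 9 numbers (exact p = 0.0156, 0.0268 after adjustment over 12 tests). Single values ran from -4.09 on number 4 to 0.26 on number 2. Over their whole length, member gaps held 0 centres on 4L and 2 on 4S. Of these, at least 1 lay outside the 300 bp compared, at 345 bp from the nearest edge. With so few centres, the value of number 4 depends strongly on the 0.5 centres added to each count. With all chromosomes pooled the log2 ratio was -0.75. Within the same 300 bp the members held 0.0777 (0.0541 to 0.108) and the longer gaps 0.141 (0.109 to 0.180) with p300 replicate 1. With p300 replicate 2 they held 0.111 (0.0824 to 0.146) and 0.141 (0.109 to 0.180), and the intervals overlapped as well. From 300 to 400 bp the series-wide order was the opposite, with 0.0869 in the members (0.0417 to 0.160) and 0.0391 in the longer gaps (0.0144 to 0.0851). At 400 to 500 bp the members were again higher, with 0.0959 (0.0198 to 0.280) compared with 0.0652 (0.0313 to 0.120). The tested difference is therefore that of the first 300 bp alone. Within these it was widest in the first 100 bp, with 0.0666 in the members and 0.169 in the longer gaps. From 200 to 300 bp the densities were close, 0.0399 and 0.0456.

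**Figure D3:**
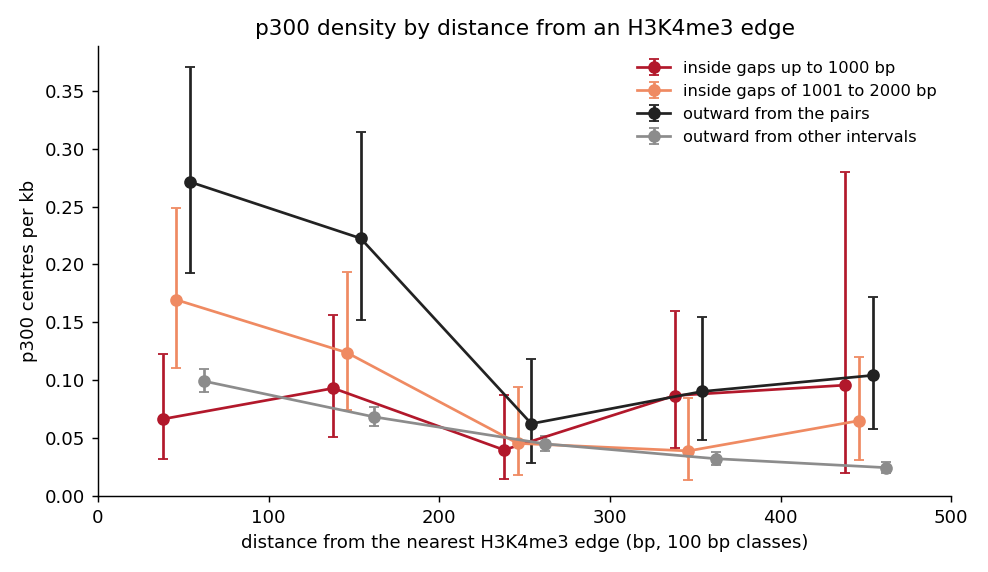
Series-wide p300 centres per kb (y axis) in 100 bp classes of distance from the nearest H3K4me3 edge (x axis, bp), inside gaps up to 1000 bp, inside gaps of 1001 to 2000 bp, outward from the pairs and outward from other intervals. Points are densities and bars exact Poisson 95% intervals. In the first 100 bp the density is 0.271 outward from the pairs and 0.0666 inside their gaps.

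Within the gaps, p300 lay on the side of the narrower flank. A single pair had flanks of equal width and is not counted here. Divided at the midpoint, the gap side next to the wider flank held 9 of the 43 centres, 20.9% (11.4 to 35.2%), and the side next to the narrower flank held 34. Per kb these were 0.0302 (0.0138 to 0.0573) and 0.114 (0.0790 to 0.159). The mean share next to the wider flank over the 9 chromosome numbers was 19.4%, a deviation of -30.6 ± 17.2 percentage points from an even division (SD, n = 9), with 8 numbers below it and 1 equal to it (exact sign-flip p = 0.00781, adjusted 0.0176). Numbers 3, 4 and 5 held 2 centres each, so their shares are coarse.

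The lean toward the narrower flank was not equally strong in all lists. With p300 replicate 1, 12 of 47 centres (25.5%, 15.3 to 39.5%) lay next to the wider flank, and with p300 replicate 2, 28 of 70 (40.0%, 29.3 to 51.7%). With replicate 2 the mean deviation was -10.9 percentage points and did not pass (exact p = 0.188). With the rule applied to H3K4me3 replicate 1 alone, 33 of 79 series-wide centres (41.8%, 31.5 to 52.8%) lay next to the wider flank, a mean deviation of -5.19 percentage points (exact p = 0.305). With H3K4me3 replicate 2 alone it was 15 of 46 (32.6%, 20.9 to 47.0%), a mean deviation of -19.0 (exact p = 0.00781). The direction was the same in each list, but series-wide intervals are overlaps of both replicate lists, so the lists are not independent.

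Outside the pairs the sides were more alike, with 0.154 centres per kb beyond the wider flank (0.112 to 0.207) and 0.183 beyond the narrower (0.136 to 0.240). The flanks themselves held 0.314 (0.286 to 0.344) when wider and 0.356 (0.303 to 0.416) when narrower. Counted per flank, 320 of 750 wider flanks (42.7%) and 143 of 750 narrower flanks (19.1%) held a p300 centre. The middle 50% of the gap held 22 of the 43 centres, 51.2% (36.8 to 65.4%), and the mean deviation from an even division was -2.36 percentage points (exact p = 0.906). The nearest gap edge was a median of 183 bp away.

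**Figure D4:**
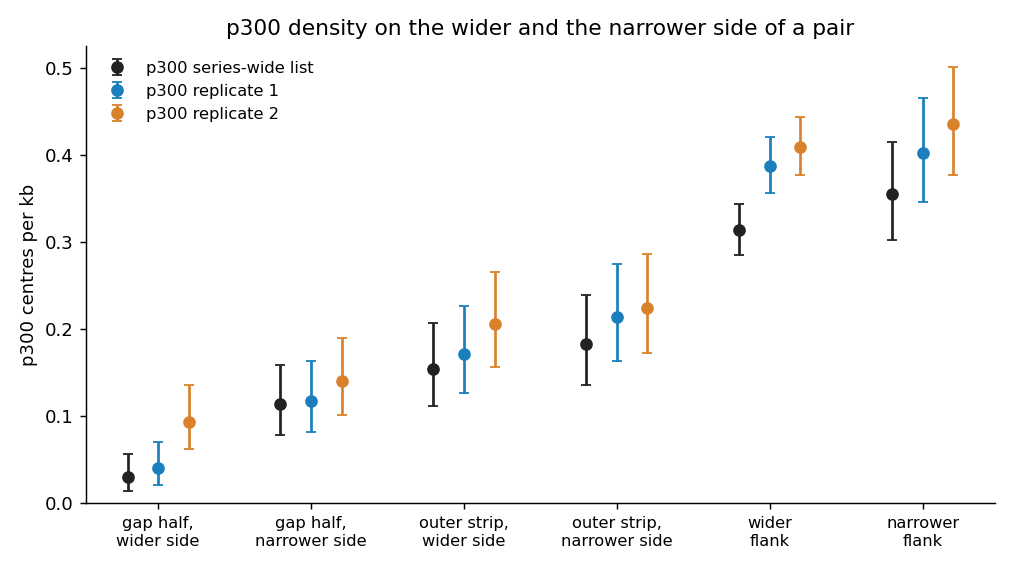
p300 centres per kb (y axis) in the gap side, the outer strip and the flank on the wider and on the narrower side of each pair (x axis), for the series-wide p300 list and each replicate. Points are densities and bars exact Poisson 95% intervals. In the gap the side next to the wider flank is lower in each list, least so in p300 replicate 2, whereas the intervals of the outer strips and of the flanks overlap between the sides.

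At the flank ends next to the gap, p300 was not shown to differ from the far ends. In flanks at least 500 bp wide with a gap on 1 side, the 250 bp next to the gap held 46 centres, 0.184 per kb (0.134 to 0.245), and the 250 bp at the far end held 78, 0.311 per kb (0.246 to 0.389). The mean log2 ratio was -0.53 ± 1.02, below 0 in 8 of 9 numbers and 1.87 on number 9_10 (exact sign-flip p = 0.156, adjusted 0.281). With ends of 500 bp in flanks at least 1000 bp wide it was -1.01 (exact p = 0.00781), an alternative that changes the end length and the flank width together. With ends of 250 bp it also passed on covered p300 bases (-0.82, exact p = 0.0156), with H3K4me3 replicate 1 alone (-0.58, exact p = 0.0312) and with p300 replicate 1 alone (-0.64, exact p = 0.0469).

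Mostly uncalled and bridged gaps were not shown to differ in p300. Mostly uncalled gaps held 13 centres, 0.0737 per kb (0.0392 to 0.126), and bridged gaps held 30, 0.0713 per kb (0.0481 to 0.102). The mean log2 ratio was -0.087 ± 1.33 (exact sign-flip p = 0.844), with single values from -1.97 to 1.84. Gaps with p300 had combined flanks of 2493 bp (median) and gaps without p300 of 2236.5 bp, a mean log2 ratio of 0.034 ± 0.79 (exact p = 0.883). Gaps with p300 had a median length of 856 bp and gaps without it of 776 bp.

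The subgenomes were not shown to differ in gap frequency. Xenopus laevis is an allotetraploid whose homeologous chromosomes are named L and S for the longer and the shorter one. There were 411 gaps on L and 340 on S, or 32.9 and 35.1 per 1000 H3K4me3 intervals. The mean difference, L minus S, was -2.41 ± 7.71 per 1000 (SD, n = 9), with L higher in 3 numbers and lower in 6 (exact sign-flip p = 0.367, adjusted 0.551). The gaps counted here were chosen from the same H3K4me3 calls, so this value describes regularity over chromosomes only. By chromosome the frequency was lowest on 9_10L, 22.8 per 1000, and highest on 8S, 44.9 per 1000. On L, 20 gaps (4.87%, 3.17 to 7.40%) held p300, and on S 23 did (6.76%, 4.55 to 9.95%). Of those on S, 10 lay on 8S alone, and the difference between L and S in this share was not tested.

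**Figure D5:**
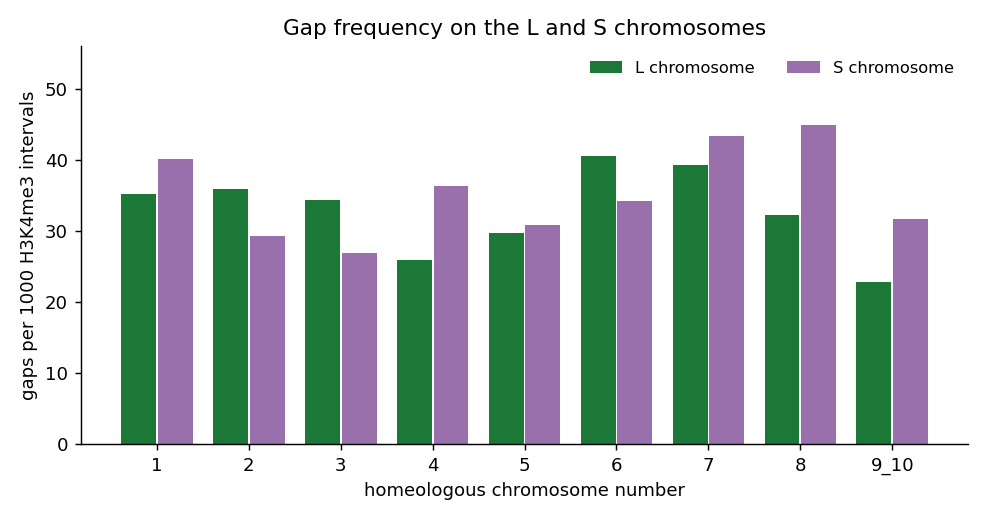
Gaps per 1000 H3K4me3 intervals (y axis) on the L chromosome and the S chromosome of each homeologous number (x axis). Bars are single values without error, and they run between 22.8 on 9_10L and 44.9 on 8S with no common direction from L to S.

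Single gaps differed in where p300 lay. On 7L the gap from 102343464 to 102344167 (704 bp) held 2 p300 centres in replicate 1 and 1 in replicate 2. It lay between flanks of 185 and 604 bp that held no p300, and the p300 peak from 102343487 to 102343801 was centred 180 bp from the narrower flank. On 8S the gap from 30889114 to 30889848 (735 bp) held 1 centre in replicate 1 and 2 in replicate 2, centred 184 bp from its narrower flank of 378 bp. Its wider flank of 1394 bp held p300 as well. Both gaps were bridged by a replicate 1 call. The next 3 by genome order, with 1 centre in each replicate, lay on 1L from 79869871 to 79870622, on 1S from 13258255 to 13258901 and on 1S from 48935162 to 48936081. The first had its centre 224 bp from the narrower flank of 970 bp, and the second had it 272 bp from the narrower flank of 182 bp. The third lay the other way, 77 bp from its wider flank of 2561 bp.

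The gaps with p300 between the widest flanks had p300 in the flanks too. The first, on 6L from 88823509 to 88824473 (965 bp), separated flanks of 4705 and 5151 bp that held 1 p300 centre each. It was bridged by a replicate 2 call, and its own centre lay 402 bp from the narrower flank. The next, on 8S from 29137712 to 29138426, lay between flanks of 1567 and 6454 bp with 1 and 2 centres, and its own p300 peak was centred 30 bp from the narrower flank. On 5S from 20187925 to 20188747 the flanks of 6707 and 1191 bp held 3 and 1 centres, and here the gap peak lay 134 bp from the wider flank. The remaining gaps of this kind were on 6L from 119145929 to 119146899 and on 9_10L from 21642911 to 21643628, with centres 339 and 199 bp from the narrower flank. All 5 had p300 in both flanks, while p300 in the gap was part of how they were chosen. Wide flanks held p300 more often in general. The share holding it rose from 22.8% of flanks of 600 to 1000 bp to 74.7% of those of at least 2500 bp. Among other intervals these shares were 15.7% and 55.2%.

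Among gaps without an H3K4me3 call on at least 50% of their bases, the widest p300 peak measured 511 bp. It lay on 6L from 108429106 to 108429616, in the gap from 108428488 to 108429450, and ran into the narrower flank of 503 bp. Calls of H3K4me3 replicate 2 covered 27.8% of this gap. On 9_10S a p300 peak of 498 bp was centred near the middle of the gap from 74979033 to 74980025 (993 bp), 537 bp from the narrower and 456 bp from the wider flank. The gaps on 2L from 136788508 to 136789364, on 4S from 57849160 to 57850015 and on 6S from 33868775 to 33869687 held p300 peaks of 417, 269 and 242 bp. Those on 2L and 4S were centred on the side of the narrower flank, 232 and 345 bp from it, and that on 6S was centred 62 bp from its wider flank of 1235 bp. Each of these 5 gaps had 1 p300 centre in each replicate.

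The longest run of gaps was on 6S, where 5 consecutive gaps of 652, 669, 986, 884 and 882 bp divided 6 intervals between 62507388 and 62522778. Its widest intervals, of 4890 and 4572 bp, held 3 and 2 p300 centres, and its gaps held 0 series-wide centres. Replicate 1 bridged 4 of them. A run of 3 gaps on 3S, between 1597410 and 1605011, was bridged throughout by replicate 1 and also held 0 p300 centres in its gaps, while its intervals of 3149 and 231 bp held 2 and 1. The first runs of 2 gaps by genome order were on 1L, 1S and 2L. Only the one on 2L had series-wide p300 in a gap, from 55261697 to 55262657, where the peak was centred 45 bp from the wider flank of 1347 bp.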

How the data were processed

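Per the submitters' processing notes, the reads passed through BWA 0.7.10-r789, bedtools and MACS2 2.1.0.20140616. The settings, control and build were not given in the sources used here. Deposited by the authors were 6 lists of peak positions without header, score or signal: 4 replicate lists and a series-wide list for each target. The other 7 of 11 samples, gene names and sequences were not analysed here. Coordinates count from 1 in the authors' build, which has no name in the files.

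The members and comparisons were chosen with earlier results of these data known. Intervals and p300 centres (midpoints) were handled in numpy 2.4.6 and scipy 1.17.1 under Python 3.11.15, and figures drawn with matplotlib 3.10.9. Strip bases inside an H3K4me3 interval or another gap were left out. Ratios of densities per chromosome number had 0.5 centres added to each count. Tests were two-sided exact sign-flip permutation tests over the 9 chromosome numbers, adjusted over 9 tests, or over 12 with those added. Wilson and Poisson intervals at 95% take peaks to be independent, which reads without molecular identifiers do not ensure, so they describe counting error alone. Functions were tested on simulated data. Alternatives were single replicate lists, the replicate block, other widths, lengths, strips and flank ends, wide p300 peaks, covered p300 bases and added scaffolds. Those by called bases, by the shortest replicate 1 gap and by width class were chosen after seeing the data. Named gaps were the first 5 by p300 centres (ties by replicate centres, then genome order), by combined flank width with p300, by p300 peak width in uncalled gaps and by run length, and those nearest the length limits.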

Additional observations from a re-analysis of the deposited data

Results flagged for a closer look

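Gaps that meet the same rule on scaffolds were left out of all comparisons because their names give no subgenome, and p300 was seen there too. Of 74 such gaps, 5 held a p300 centre. That is 5 p300 centres in 59.3 kb, or 0.0843 per kb (exact Poisson 95% interval 0.0274 to 0.197). The gaps on the L and S chromosomes held 0.0720 per kb, which lies within that interval.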

How the results depend on the processing

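A call was an exact sign-flip p at or under 0.05. The ratios of gap to flank and of flank to other intervals kept direction and call under each alternative run, except that adding scaffolds gave a pooled value with no test. The alternative of gaps from 200 to 1000 bp held the same 751 gaps, so it could not change any value. Leaving out 1 replicate list of either target gave 892 to 1061 gaps where the H3K4me3 list changed, and log2 ratios of gap to outer strip from -1.37 to -0.23, of flank end next to the gap to far end from -0.64 to -0.44, and of uncalled to bridged gaps from -0.55 to -0.00073. It gave deviations from -25.1 to -5.19 percentage points for the side next to the wider flank and from -13.1 to 4.60 for the middle of the gap, log2 ratios of flank width from -0.45 to 0.084, and L minus S from -2.38 to 0.0027 per 1000. The gap to strip call was lost without H3K4me3 replicate 2, the call on sides without H3K4me3 replicate 2 or p300 replicate 1, and the flank ends passed without H3K4me3 replicate 2 or p300 replicate 2.

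The ratio of gap to outer strip was 0.33 against strips outside other intervals and -0.39 on bases with no H3K4me3 call, an alternative chosen after seeing the data. The ratio at flank ends passed with covered p300 bases (-0.82) and with ends of 500 bp in flanks of at least 1000 bp (-1.01). The mostly uncalled to bridged ratio was 0.42 with p300 peaks at least as wide as the median. The cause was not tested.

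With the replicate block (same-numbered lists, averaged) the gap to strip ratio was -0.65 and passed (exact p = 0.0156), the deviation on sides was -8.51 and passed (exact p = 0.00781), and the flank width ratio was -0.10 in place of 0.034, not passing with or without the block. The block changed no call. The labels do not say that the numbers pair the samples. Gaps of 50 to 500 bp, and gaps without a call on any base, did not exist, so these alternatives gave no value. Depth is unknown, and 43 centres limit every statement on p300 inside the gaps.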

Other observations

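Chromosome 8S was singled out after its values were seen. It held 10 of the 43 p300 centres in gaps, and the next highest chromosome held 7. On 8S, 10 of 49 gaps had p300, or 20.4% (Wilson 95% interval 11.5 to 33.6%), compared with 33 of 702 on the 17 other chromosomes, or 4.70% (3.37 to 6.53%). Per kb, the 8S gaps held 0.259 centres (0.124 to 0.476) and its outer strips 0.212 (0.0914 to 0.417), whereas on the other chromosomes the gaps held 0.0591 (0.0407 to 0.0829) and the strips 0.165 (0.132 to 0.203). The lower density of gaps than of strips was thus not seen on 8S, where the intervals overlapped. The p300 replicates had 11 (replicate 1) and 15 (replicate 2) centres in 8S gaps. Series-wide p300 peaks are overlaps of both lists, so these counts are not independent of the 10. The 10 gaps were spread between 3231608 and 96404922. The difference between 8S and the other chromosomes was not tested.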
